A study of Mus musculus with 5 samples.

Results

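Interferon-stimulated genes were read on 1 Affymetrix array each for 5 clones of the mouse osteocytic line Ocy454. The 40 genes considered are a list of interferon-stimulated genes and regulators of the response, matched to the array by gene symbol or an older alias. Of these, 38 were measured among 23185 named genes, and Ifit3b and Ifi44 are not analysed here. The clones were each grown from 1 cell. From 37 clones screened for Sost, which encodes the secreted Wnt inhibitor sclerostin, the submitters took 12H and 15H for the highest Sost (the high-Sost clones) and 4L, 9L and 24L for low Sost (the low-Sost clones). All 5 were cultured for 7 days at 37 °C in αMEM with 10% FBS and 1% AA, without treatment. No clone was given interferon or any other agent, so every reading is a basal level. A clone is a line of its own, so each group is a small set of clones of 1 parent line rather than repeated cultures.

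Type I interferons bind the receptor IFNAR1/IFNAR2, whose kinases JAK1 and TYK2 phosphorylate STAT proteins, STAT2 among them. STAT2 and IRF9 are subunits of the complex ISGF3, which binds the interferon-stimulated response element in the promoters of interferon-stimulated genes. The products include sensors of viral RNA, enzymes and GTPases that block viral replication, and parts of the signalling machinery itself, among them IRF7, STAT2 and IRF9. Many of these genes have a basal level in unstimulated cells.

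To show the element in the genes described here, RefSeq promoter windows (GRCm38.p6, 250 bases before to 50 after the gene start) were searched on both strands for the core of the element. The core was taken as GAAA, any 2 bases and GAAA, 10 bases in all, with TTTC, any 2 bases and TTTC on the other strand. Windows were in the table for 28 of the 38 members. The core was found in 14 of the 28 (50%, Wilson 95% interval 32.6% to 67.4%) and in 1079 of 27025 genes with a window (3.99%). It was present for 10 of 21 members that read highest in clone 15H and for 4 of 7 that did not. A gene with several windows was counted if any of them held the core. The 5 promoters below belong to the members with the widest spread between clones among those that hold the core.  Each is printed on the strand of its gene, and capitals mark every match of the core.

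Ifit1, chr19:34640639-34640938, + strand: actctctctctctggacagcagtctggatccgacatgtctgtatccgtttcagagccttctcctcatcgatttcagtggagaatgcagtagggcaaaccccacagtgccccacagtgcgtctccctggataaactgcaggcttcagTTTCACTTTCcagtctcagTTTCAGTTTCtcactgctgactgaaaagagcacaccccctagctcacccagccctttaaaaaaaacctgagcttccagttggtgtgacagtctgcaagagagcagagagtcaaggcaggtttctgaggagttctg
Gbp2, chr3:142620413-142620712, + strand: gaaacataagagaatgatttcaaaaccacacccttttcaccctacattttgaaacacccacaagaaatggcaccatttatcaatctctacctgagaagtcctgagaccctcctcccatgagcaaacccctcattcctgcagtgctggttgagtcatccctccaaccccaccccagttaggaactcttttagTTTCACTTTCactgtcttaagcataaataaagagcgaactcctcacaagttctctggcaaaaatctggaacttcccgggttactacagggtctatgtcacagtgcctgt
Cxcl10, chr5:92348840-92349139, - strand: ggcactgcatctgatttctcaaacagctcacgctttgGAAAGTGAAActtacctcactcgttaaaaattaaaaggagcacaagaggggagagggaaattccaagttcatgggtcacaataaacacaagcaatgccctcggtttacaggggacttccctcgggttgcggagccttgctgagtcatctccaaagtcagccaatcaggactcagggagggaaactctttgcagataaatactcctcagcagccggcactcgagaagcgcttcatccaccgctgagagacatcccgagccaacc
Gbp3, chr3:142559794-142560093, + strand: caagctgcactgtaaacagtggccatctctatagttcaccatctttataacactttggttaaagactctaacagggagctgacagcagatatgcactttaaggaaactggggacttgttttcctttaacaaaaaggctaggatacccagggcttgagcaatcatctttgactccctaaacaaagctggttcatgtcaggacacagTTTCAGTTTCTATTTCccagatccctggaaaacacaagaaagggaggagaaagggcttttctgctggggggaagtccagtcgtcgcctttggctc
Isg15, chr4:156200769-156201068, - strand: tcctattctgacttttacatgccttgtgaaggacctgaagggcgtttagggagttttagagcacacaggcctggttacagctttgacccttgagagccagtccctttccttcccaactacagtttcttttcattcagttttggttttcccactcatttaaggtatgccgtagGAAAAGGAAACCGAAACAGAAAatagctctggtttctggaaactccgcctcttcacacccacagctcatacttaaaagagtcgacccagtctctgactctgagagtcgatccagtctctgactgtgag

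The Ifit1 promoter holds 2 separate cores, which begin at positions -104 and -85 from the gene start. In Isg15 there are 3 overlapping cores, the first at -78, and in Gbp3 2 overlapping cores, the first at -45. A second window of Gbp3, chr3:142560106-142560405, held 0 cores and is not printed. Gbp2 and Cxcl10 hold 1 core each, at -59 and -213. A match describes these letters and is not a measured binding site.

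Clone 15H stood above the other clones across most interferon-stimulated genes. It gave the highest reading for 30 of the 38 members (78.9%), against 13.6% of all named genes. The members' median lay 0.81 above each gene's mean of the 5 clones in 15H, on the log2 scale of all values here. It lay at 0.16 in 9L, -0.10 in 24L, -0.33 in 12H and -0.38 in 4L. The members' order was thus 15H, 9L, 24L, 12H, 4L. Over all genes the same median was 0.00 in every clone. RMA, listed in the submitters' notes, brings arrays to 1 distribution, which by itself keeps that all-gene value near 0. With 1 array per clone there is no spread within a clone, so these values are a description without a test. In such bulk RNA, fewer cells that express a gene and less RNA per cell cannot be told apart.

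**Figure D1:**
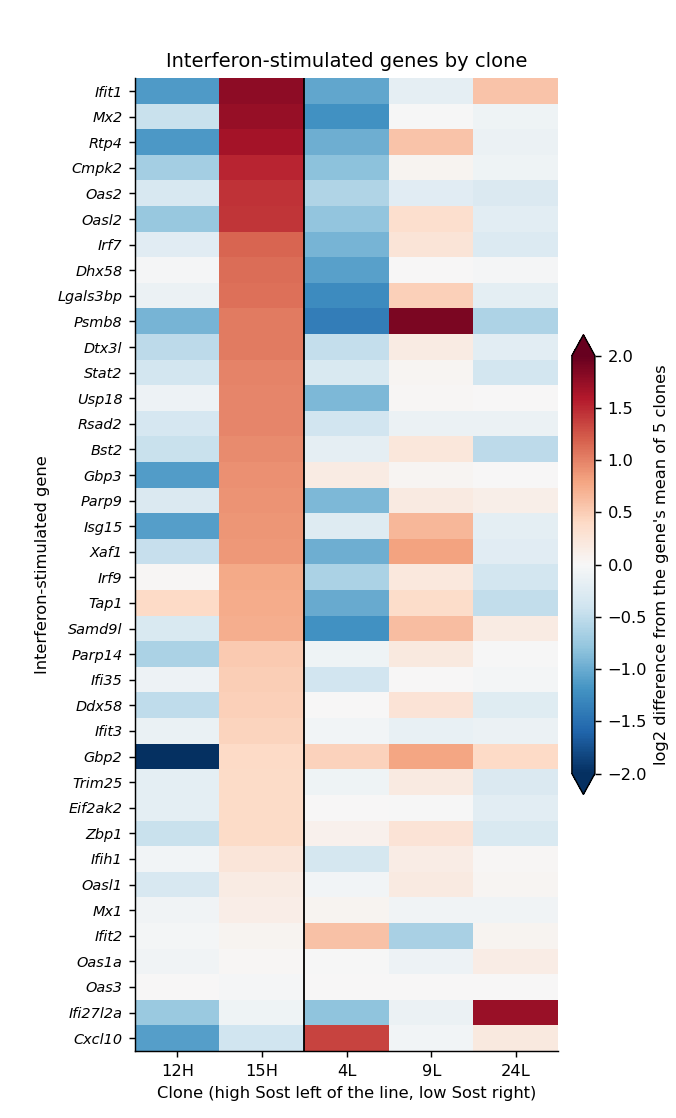
Readings of the 38 interferon-stimulated genes (rows) in each clone (columns), coloured by the log2 difference from the gene's mean of the 5 clones and ordered by the value in 15H. Clone 15H is the highest for 30 members, while Cxcl10 stands highest in 4L, Ifi27l2a in 24L, and Gbp2 lowest in 12H.

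By size, 17 members (44.7%) read at least 2-fold above the median of the other clones in 15H, against 0.863% of all genes, and 0 read at least 2-fold below it (0.638% of all genes). In 9L 3 members stood 2-fold above (0.953% of all genes) and 0 below (0.587%). In 24L 2 members stood 2-fold above (1.4% of all genes) and 0 below (0.643%). The direction was opposite in the remaining clones. In 4L 10 members stood at least 2-fold below (2.09% of all genes) and 1, Cxcl10, above (1.5%). In 12H 7 members stood at least 2-fold below (1.7% of all genes) and 0 above (1.11%). Among those below, Mx2 and Samd9l in 4L and Gbp2 and Gbp3 in 12H lay under the scale for low readings described below. The lowest reading was in 4L for 18 members (19.2% of all genes) and in 12H for 11 (18.2%). The counts in 4L and 12H depended on which other clones set the reference. Without 15H 6 members stood 2-fold below in 4L and 4 in 12H. The share of all genes was not computed for that setting, so these 2 counts have no background. Clone 4L also stood apart in osteoblast markers: Ibsp read 2.24 there and 8.35 to 11.8 elsewhere, and Sp7 2.68 against 7.05 to 9.98. The part of this in the members' readings was not tested.

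**Figure D2:**
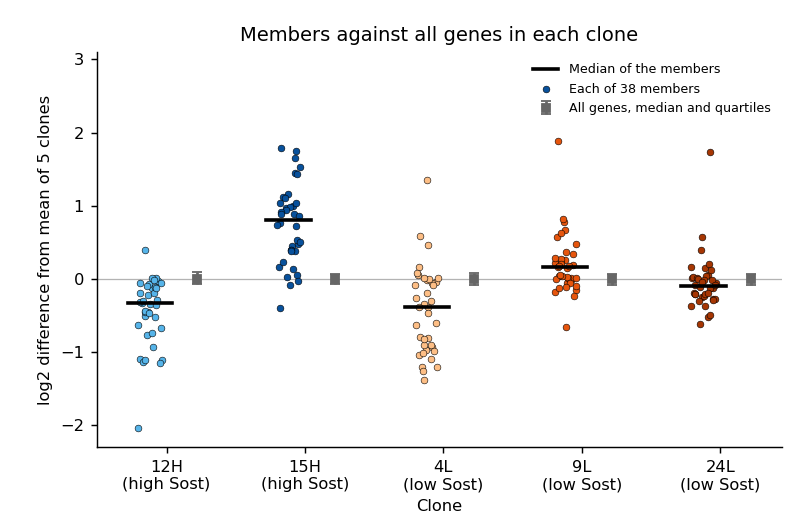
Log2 difference from the mean of the 5 clones for each of the 38 members (points) in each clone, with the members' median (bar) and the median and quartiles of all named genes (grey square and whiskers). The members' median is 0.81 in 15H and -0.38 in 4L, while all genes have a median of 0.00 in each clone.

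The 3 members that carry the signal to the nucleus all read highest in 15H. Irf7, the transcription factor that amplifies interferon production, read 6.73 in 12H, 8.11 in 15H, 6.03 in 4L, 7.22 in 9L and 6.69 in 24L. Stat2, a subunit of ISGF3, read 6.61 in 12H, 7.97 in 15H, 6.68 in 4L, 7.01 in 9L and 6.61 in 24L. Irf9, the DNA-binding subunit of ISGF3, read 7.37 in 12H, 8.12 in 15H, 6.73 in 4L, 7.57 in 9L and 6.99 in 24L. For Stat2 clone 12H lay level with the lowest readings of the low-Sost clones, and for Irf7 and Irf9 it lay inside their range. Irf7 was 2.65-fold and Stat2 2.50-fold above the median of the other clones in 15H, and Irf9 1.92-fold.

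Among the 5 sensors of foreign nucleic acid and their cofactors, all read highest in 15H, and 1, Dhx58, at least 2-fold above the median of the other clones. Dhx58 encodes LGP2, a regulator of RIG-I-like receptors. It read 5.54 in 12H, 6.67 in 15H, 4.46 in 4L, 5.56 in 9L and 5.54 in 24L, so 3 clones lay close together with 15H above and 4L below them. The RNA helicases Ddx58 (RIG-I) and Ifih1 (MDA5) had narrower ranges, of 0.98 and 0.58. Zbp1, a sensor of Z-form nucleic acid, and Trim25, a ubiquitin ligase that acts on RIG-I, had ranges of 0.82 and 0.68.

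Isg15, a ubiquitin-like modifier, read 5.58 in 12H, 7.57 in 15H, 6.43 in 4L, 7.35 in 9L and 6.49 in 24L. Both the highest and the lowest reading came from the high-Sost clones, 3.97-fold apart, and 9L lay close under 15H. Usp18, the protease that removes ISG15 and dampens the receptor, read 7.03 in 15H, at least 2-fold above the median of the other clones, with 6.07 in 9L next and its lowest reading of 5.15 in 4L.

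The IFIT proteins bind viral RNA, and their 3 measured genes, which lie close together on chromosome 19, did not share 1 pattern. Ifit1 read 4.21 in 12H, 7.13 in 15H, 4.30 in 4L, 5.16 in 9L and 5.91 in 24L. It was 5.28-fold above the median of the other clones in 15H and had the widest gap between the high-Sost clones of all members, 2.92. Ifit3 read 4.87 in 15H and between 4.27 and 4.38 elsewhere. Ifit2, the neighbour of Ifit3, was highest in 4L at 6.63 and lowest in 9L at 5.39, with 6.01 in 12H and 6.10 in 15H.

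Enzymes that respond to double-stranded RNA were split. Oasl2, an OAS-like protein, read 6.35 in 12H, 8.55 in 15H, 6.33 in 4L, 7.45 in 9L and 6.90 in 24L. Oas2, an oligoadenylate synthetase that activates RNase L, read 3.83 in 12H, 5.60 in 15H, 3.55 in 4L, 3.92 in 9L and 3.87 in 24L. For Oas2 the 4 clones other than 15H lay within 0.37 of each other, and 15H stood 3.36-fold above their median. Eif2ak2, which encodes the kinase PKR, was highest in 15H at 8.66, with a range of 0.59. Oas1a, Oas3 and Oasl1 had ranges of 0.25, 0.03 and 0.50 and were not highest in 15H. Oas3 gave the same reading of 4.16 in 4 clones and 4.13 in 15H. Probe sets of the Oas and Ifit families can share sequence, which was not checked here.

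Antiviral GTPases gave 2 patterns. Mx2 read 2.69 in 12H, 4.88 in 15H, 1.93 in 4L, 3.13 in 9L and 3.06 in 24L, and 15H alone lay above the 95th percentile of olfactory and vomeronasal receptor genes, which was 3.37 to 3.56 in the clones. These receptors are genes of sensory tissue and serve as a scale for low readings. Mx1 and Oas1a stayed under that level in all 5 clones, and a lack of difference there cannot be told from a lack of signal. Gbp2, a guanylate-binding protein, read 2.81 in 12H, 5.25 in 15H, 5.31 in 4L, 5.64 in 9L and 5.25 in 24L. It was thus low in 12H alone, where its reading lay under the receptor-gene percentile, so no exact fold is given. Its near neighbour Gbp3, also on chromosome 3, read 3.45 in 12H, 5.47 in 15H, 4.72 in 4L, 4.60 in 9L and 4.56 in 24L, low in 12H and high in 15H. In 12H Gbp3 too lay under the receptor-gene percentile, which was 3.55 in that clone.

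**Figure D3:**
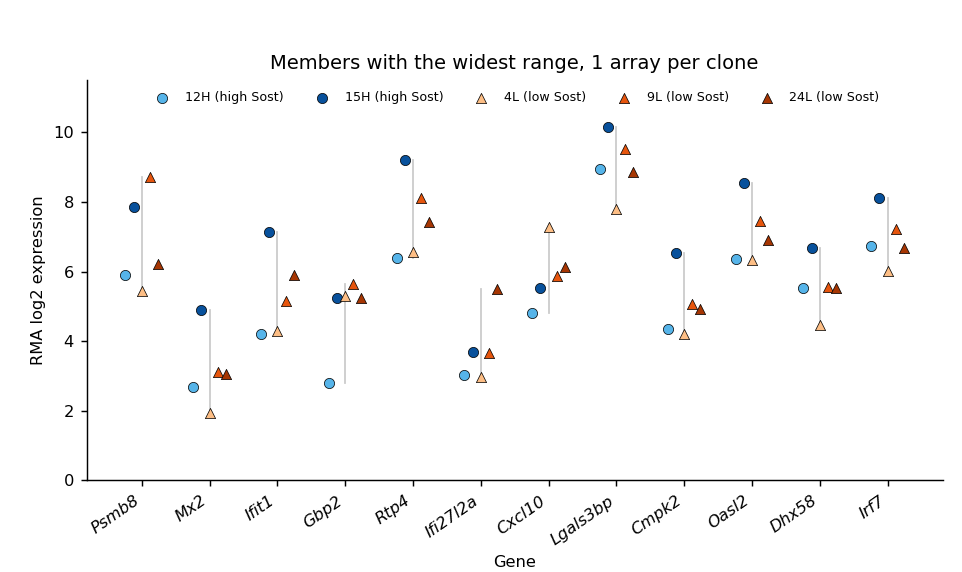
RMA log2 expression of the 12 members with the widest range, with circles for the high-Sost and triangles for the low-Sost clones. Clone 15H is the top point for 8 of them, and 4L is the bottom point for 8. Levels of different genes are not comparable.

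Members that lie next to each other in the gene order were compared. Rsad2, which encodes the antiviral enzyme viperin, and its neighbour Cmpk2, a mitochondrial nucleotide kinase, were both highest in 15H and lowest in 4L. Cmpk2 read 4.34 in 12H, 6.55 in 15H, 4.20 in 4L, 5.06 in 9L and 4.93 in 24L. Rsad2 read 5.26 in 15H and between 3.90 and 4.16 elsewhere. Parp9, Parp14 and Dtx3l, neighbours on chromosome 16 whose products act in ADP-ribosylation and ubiquitination, also read highest in 15H, where they exceeded 12H by 1.16 to 1.56. The members lie on 14 chromosomes, and each of the 14 holds at least 1 member with its highest reading in 15H. As most members read highest in 15H, this count says little about position.

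The antigen-processing members Psmb8 and Tap1, neighbours on chromosome 17, differed. Psmb8, an immunoproteasome subunit, read 5.89 in 12H, 7.87 in 15H, 5.44 in 4L, 8.72 in 9L and 6.21 in 24L. It had the widest range of all members (9.68-fold), and both its ends were low-Sost clones, 9L at the top and 4L at the bottom. Tap1, a peptide transporter, read 7.27 in 12H, 7.62 in 15H, 5.86 in 4L, 7.24 in 9L and 6.39 in 24L. For Tap1 12H, 15H and 9L stood together and 4L lowest. Both high-Sost clones read above every low-Sost clone for Tap1 (1.93-fold by the group means), though 12H lay only just above 9L.

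Of the secreted products, Lgals3bp, a galectin-binding glycoprotein, read 8.94 in 12H, 10.2 in 15H, 7.80 in 4L, 9.53 in 9L and 8.86 in 24L. Cxcl10, a chemokine that draws T cells, went against the rest. It read 4.81 in 12H, 5.52 in 15H, 7.28 in 4L, 5.87 in 9L and 6.12 in 24L, so both high-Sost clones lay below every low-Sost clone.

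Rtp4, a chaperone of membrane receptors, read 6.39 in 12H, 9.19 in 15H, 6.56 in 4L, 8.10 in 9L and 7.42 in 24L, a gap of 6.98-fold between the high-Sost clones. Bst2, which encodes tetherin and holds virus particles at the cell surface, and Xaf1, a pro-apoptotic factor, were also at least 2-fold above the median of the other clones in 15H. For both, 9L was next, with 9.41 against 10.1 for Bst2 and 7.99 against 8.04 for Xaf1. Samd9l was highest in 15H (5.27) and close to it in 9L (5.17). Ifi35 was highest in 15H, with a range of 0.88. Ifi27l2a read 3.03 in 12H, 3.69 in 15H, 2.96 in 4L, 3.66 in 9L and 5.50 in 24L, so 24L alone stood high.

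The high-Sost clones were then set against each other, since both carry the same label. Of the 38 members 37 read higher in 15H than in 12H, and 1, Oas3, read lower, by 0.03. The median difference was 1.15 (2.22-fold) for the members and 0.00 for all genes. At least 2-fold differences in favour of 15H were seen for 22 members (57.9%), against 1.29% of all genes, and in favour of 12H for 0 members (0.699% of all genes). The gap of 15H over 12H exceeded the whole range of the low-Sost clones for 26 members (68.4%), against 13.9% of all genes.

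**Figure D4:**
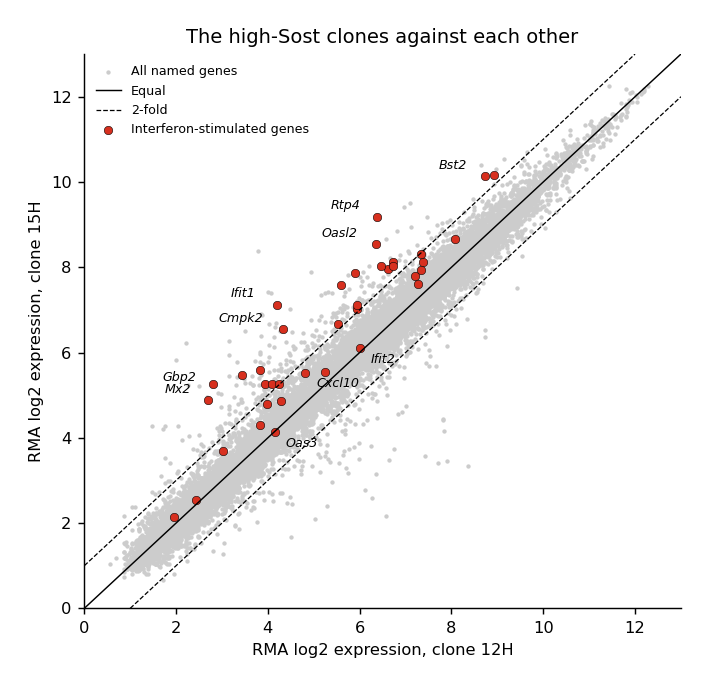
RMA log2 expression in clone 15H against clone 12H for all named genes (grey) and the 38 members (red), with lines at equal and at 2-fold different readings. Of the members 22 lie above the upper 2-fold line and 0 below the lower.

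The series asks which genes differ between high-Sost and low-Sost clones. For interferon-stimulated genes no difference between the groups reached the threshold of the test, adjusted or unadjusted. In limma's test 0 members and 0 of all genes (0%) passed at an adjusted p under 0.05. At an unadjusted p under 0.05 there were 0 members in either direction, against 3.07% of all genes higher and 2.71% lower in the high-Sost clones. At 2-fold or more without overlap between the groups there were 0 members higher (0.867% of all genes) and 1 lower, Cxcl10 (0.983%). Without 12H or without 4L that count was 0. The median difference, high-Sost minus low-Sost, was 0.33 for the members and 0.00 for all genes, with 27 members above 0 and 11 below.

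The members with the smallest limma p were Cxcl10, Tap1, Irf9, Gbp2, Dhx58 and Oas2, each with an adjusted p of 0.737. Cxcl10 averaged 5.17 ± 0.50 (SD, n = 2) in the high-Sost and 6.42 ± 0.75 (SD, n = 3) in the low-Sost clones, 2.38-fold lower (difference -1.25, SE 0.56). The Tap1 means were 7.45 ± 0.24 (SD, n = 2) in the high-Sost and 6.50 ± 0.70 (SD, n = 3) in the low-Sost clones, 0.95 apart (SE 0.48). For Irf9 the difference was 0.65 (SE 0.38), for Dhx58 0.91 (SE 0.57) and for Oas2 0.93 (SE 0.61). The Gbp2 difference of -1.37 (SE 0.83) came from 12H alone. Irf7 differed by 0.78 (SE 0.61, limma adjusted p = 0.743) and Stat2 by 0.53 (SE 0.48, adjusted p = 0.771). Isg15 differed by -0.18 (SE 0.75, adjusted p = 0.985), with an SD of 1.41 between the high-Sost clones and 0.52 among the low-Sost clones. It was 0.82 without 12H and 0.12 without 9L.

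The comparison depended on which high-Sost clone was used. With 12H left out, the median difference of 15H from the low-Sost clones was 0.93, and 17 members were at least 2-fold above the mean of those clones without overlap (1.1% of all genes), with 0 below (0.914%). With 15H left out, the median difference of 12H was -0.14, and 4 members, Isg15, Gbp2, Gbp3 and Cxcl10, were at least 2-fold below the low-Sost mean without overlap (2.04% of all genes), with 0 above (1.5%). These fits have 1 high-Sost clone and take its spread from that of the low-Sost clones. At an unadjusted p under 0.05, 7 members were higher in 15H (Ifit3, Oas2, Rsad2, Stat2, Gbp3, Dtx3l and Cmpk2; 4.74% of all genes) and 0 in 12H (7.83% of all genes). In 12H 3 were lower, Gbp2, Gbp3 and Parp14 (5.56% of all genes). No member passed limma's adjusted threshold in either fit (smallest adjusted p 0.153 for Gbp3 in 15H and 0.0821 for Gbp3 in 12H). Stat2, for example, differed by 1.21 in 15H (SE 0.22) and by -0.15 in 12H (SE 0.22).

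Genes upstream of the members were then described. Among 28 measured interferon ligands, receptors and signal transducers, 3 read highest in 15H (10.7%, against 13.6% of all genes), and 0 stood 2-fold above the median of the other clones there. Ifnb1, which encodes interferon beta, read between 1.86 and 2.29 in every clone, under the receptor-gene percentile. The receptor gene Ifnar1 read 8.63 in 12H, 9.09 in 15H, 8.76 in 4L, 8.99 in 9L and 8.58 in 24L, and Ifnar2 between 8.23 and 8.71. Among those that reached 6 in any clone, the widest ranges were those of Irf1 (7.71 in 4L and 6.24 in 12H), Jak2 (9.44 in 12H and 7.97 in 24L), Ifngr1 (9.44 in 12H and 8.32 in 24L) and Il10rb (8.98 in 9L and 8.12 in 24L). Ifngr1 read higher in both high-Sost clones (9.44 and 9.13) than in every low-Sost clone (8.32 to 8.46), by 0.88 (SE 0.12, limma adjusted p = 0.572). At an unadjusted limma p under 0.05, 2 of the 28 were higher in the high-Sost clones (3.07% of all genes) and 1, Pias1, lower (2.71%). The 2 were Ifngr1 and Ifnk, and Ifnk stayed under the receptor-gene percentile in every clone. Adjusted over all genes, 0 of these 28 passed in either direction, and the list's median difference, high-Sost minus low-Sost, was -0.02.

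Of 21 nucleic acid sensors and adaptors outside the 38 members, 6 read highest in 15H (28.6%, against 13.6% of all genes) and 1, Ifi204, at least 2-fold above the median of the other clones (6.87 in 15H, with 6.27 in 24L next). Aim2, a DNA sensor of the inflammasome, read 2.49 in 12H, 5.21 in 15H, 5.86 in 4L, 6.15 in 9L and 5.25 in 24L. Like Gbp2, it was low in 12H alone, where it lay under the receptor-gene percentile. Myd88 and Sting1, adaptors of Toll-like receptors and of cytosolic DNA sensing, had ranges of 0.72 and 1.00. The median difference between the groups was 0.01, and 0 of the 21 passed the adjusted threshold. At an unadjusted limma p under 0.05, 0 were higher in the high-Sost clones (3.07% of all genes) and 1, Cgas, lower (2.71%). Cgas read 6.30 in 12H and 6.24 in 15H, against 6.53 to 6.58 in the low-Sost clones (limma adjusted p = 0.572).

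Antigen presentation genes outside the members showed another order. Of 17 measured, 1 read highest in 15H (5.88%, against 13.6% of all genes), and the list median was lowest in 24L, at -0.24, against 0.10 in both 15H and 9L. H2-K1, a classical class I molecule, read 6.64 in 24L and between 8.36 and 8.50 elsewhere, and H2-D1 read 9.68 in 24L and 10.7 to 11.6 elsewhere. Psmb9, an immunoproteasome subunit, was lowest in 4L (4.14), as Psmb8 and Tap1 were. Its readings in 12H (6.18) and 15H (5.70) lay above every low-Sost clone (at most 5.63, in 9L), 2.12-fold by the group means. Those of H2-D1, 11.6 in 12H and 11.1 in 15H, also lay above every low-Sost clone (at most 10.8, in 4L), by 1.94-fold. At 2-fold or more without overlap, 0.867% of all genes were higher. Psmb9 and H2-D1 each had a limma adjusted p of 0.737. Tapbp, which encodes tapasin, was lowest in 12H (7.79) and highest in 4L (9.69). The median difference was 0.08, with 0 of the 17 passing the adjusted threshold. At an unadjusted limma p under 0.05, 0 were higher in the high-Sost clones (3.07% of all genes) and 1 lower (2.71%).

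A list of 48 other measured interferon-induced genes read highest in 15H and lowest in 12H by its median, while the members' median was lowest in 4L. Of these genes 22 read highest in 15H (45.8%, against 13.6% of all genes) and 5 at least 2-fold above the median of the other clones (0.863% of all genes): Igtp, Irgm2, Sp100, Apol9a and Apol9b. Clone 12H was lowest for 22 of them (18.2% of all genes) and at least 2-fold below the median of the others for 10 (1.7% of all genes), among them Ifi47, Igtp, Irgm1 and Trim12c. Apol9b read 6.96 in 12H, 9.42 in 15H, 8.38 in 4L, 8.89 in 9L and 7.31 in 24L. Its close copy Apol9a had the same highest and lowest clones, and the probe sets of the 2 may not be separable. Ly6e and Casp4 read lower in both high-Sost clones than in every low-Sost clone. Tlr3, counted also among the sensors, went the other way, with 5.93 in 12H, 5.45 in 15H and 4.00 to 5.12 in the low-Sost clones. Each was at least 2-fold apart by the group means, as were 0.983% of all genes lower and 0.867% higher without overlap. The list's medians were 0.25 in 15H and -0.25 in 12H, and its difference between the groups was -0.003, with 0 of the 48 passing the adjusted threshold. At an unadjusted limma p under 0.05, 1 was higher in the high-Sost clones (3.07% of all genes) and 1, Casp4, lower (2.71%).

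**Figure D5:**
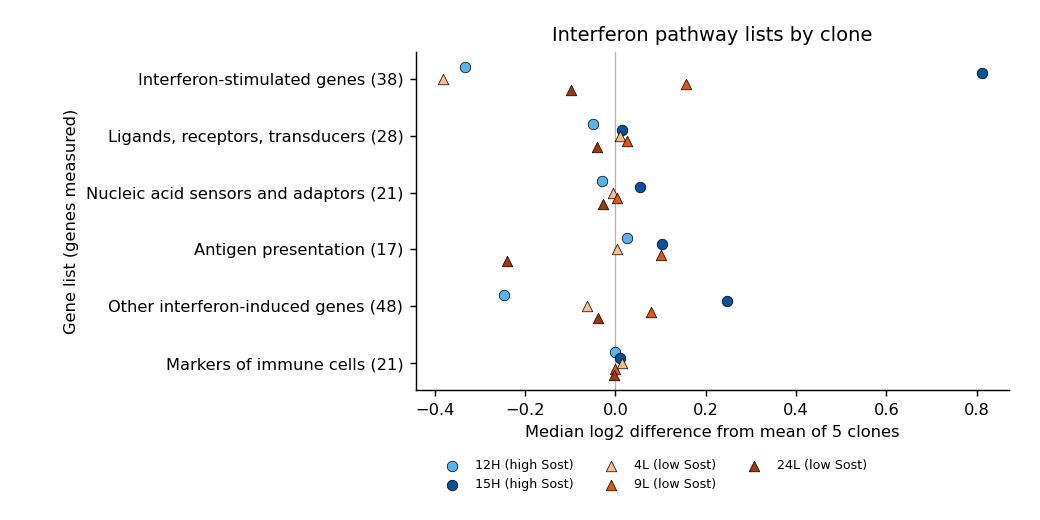
Median log2 difference from each gene's mean of the 5 clones, for 6 gene lists (rows, with the number of genes measured) in each clone. The wide spacing of 15H (0.81) from the other clones is seen for the 38 members, and less for the other interferon-induced genes (0.25), while immune cell markers lie near 0 in every clone.

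Markers of immune cells were low in every clone. Of 21 measured, 15 stayed under the receptor-gene percentile in all 5 clones, among them Ptprc (1.78 to 1.91), Adgre1 and Itgam, and 1, Cd68, reached 6 in any clone. Cd68, a lysosomal protein also made outside macrophages, was highest in 4L (6.97), with 6.13 in 15H. Summed on the linear scale, the markers gave 239 in 15H and 199 to 290 in the other clones, and 0 of the 21 stood 2-fold above the median of the other clones in 15H. Of 10 osteocyte markers, Dmp1 and Phex read 5.75 and 6.99 in 15H and 7.45 and 6.04 in 12H, against at most 3.17 in the low-Sost clones. At an unadjusted limma p under 0.05, 3 of the 10, Dmp1, Phex and Dkk1, were higher in the high-Sost clones (3.07% of all genes). In the other direction 1 was lower (2.71% of all genes). Of 6 osteoblast markers 1, Bglap, was higher and 0 lower, and no marker of either list passed the adjusted threshold. Sost itself, which chose the clones, read 4.08 in 12H, 3.92 in 15H and 3.78 to 3.91 in the low-Sost clones, which put 15H beside 24L (3.91). These readings span 0.30 and lie close above the receptor-gene percentile (3.37 to 3.56), so they say little about the clones' Sost. The osteocyte genes Mepe and Fgf23 stayed under the receptor-gene percentile in all 5 clones.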

How the data were processed

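Biotin-labelled RNA of 5 clones was measured on 1 array each, per the labels' protocols. The authors deposited log2 expression for each probe set. The submitters' processing notes list R 2.15.1, affy 1.36.1 and RMA without saying what each did. RMA brings arrays to 1 distribution, so it takes out any change common to most genes, and levels of different genes are not comparable. The chip definition was not given in the sources used here, nor were filters or a genome build. A single gene was assigned to 23185 of 25206 probe sets, updated by Entrez number through a RefSeq table (GRCm38.p6); 0 had several, and 2021 unnamed ones stayed out. In 56.9% of probe sets a value repeats between arrays.

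Groups came from the Sost label. All named genes were fitted with limma 3.58.1 in R 4.3.3 (lmFit on the group, eBayes without trend, 3 residual degrees of freedom, prior 0.70), two-sided, adjusted by Benjamini-Hochberg across all 23185, with 0.05 as threshold. The fit was tested on simulated data. P-values set the group difference against the spread between clones, and 2 against 3 clones allow no exact permutation p under 0.1. Folds are powers of 2 of log2 differences. Clone readings were compared with the median of the other clones at 2-fold. Lists are described by counts and medians, without a set test.

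The members and lists were chosen with earlier results of these data known. Values in every clone are given for Irf7, Irf9, Stat2 and Isg15, the 12 members with the widest range and the 6 with the smallest p. From each list up to 4 genes with the widest range and a reading of 6 or more were to be named. Gbp3, Ifit2, Ifit3, Ifnb1, Ifnar1, Ifnar2, Ifnk, Pias1, Cgas, Tlr3, Igtp, Irgm1, Irgm2, Ifi47, Sp100, Trim12c, Ptprc, Adgre1, Itgam, Mepe, Fgf23 and Sost were added after their values were seen. Python 3.11.15 and matplotlib 3.10.9 made the figures.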

Additional observations from a re-analysis of the deposited data

How the results depend on the processing

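Clone 15H stayed the highest for 29 to 32 members with arrays shifted to 1 median, quantile normalization again, without the dimmest 30% of genes, and without each other clone. It stayed at least 2-fold above the median of the other clones for 16 to 21 members under these settings, and above their mean for 19, and 23 members stood 1.5-fold above the median. All settings for the first count, and leaving out clones for the second, were chosen after seeing the data. Shares of all genes were not computed under these settings, so the counts describe the members alone.

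No alternative brought a member past the adjusted threshold. Over all genes 2 higher genes passed with arrays shifted to 1 median, 1 with an unmoderated equal-variance test, and 2 higher and 1 lower at an adjusted p under 0.1. Leaving out each clone in turn, members at an unadjusted p under 0.05 numbered 0 to 7 higher (7 without 12H, 1 without 9L) and 0 to 3 lower (3 without 15H). Members at least 2-fold apart without overlap numbered 0 to 17 higher (17 without 12H, 3 without 9L) and 0 to 4 lower (4 without 15H, 2 without 24L, 0 without 12H or 4L). The members' median difference ranged from -0.14 without 15H to 0.93 without 12H. The Isg15 difference ranged from -1.17 without 15H to 0.82 without 12H and was 0.12 without 9L, and that of Stat2 from -0.15 without 15H to 1.21 without 12H. Fewer clones make non-overlap easier. At 2-fold without overlap, 1.1% of all genes were higher without 12H and 2.04% lower without 15H. With 4L, 9L or 24L left out, shares of all genes were not computed, so those counts describe the members alone. Searching the strand of the gene alone, the core was found in 25% of members and 2.06% of all genes. No paired analysis was possible because each clone has a number of its own. The number of arrays limits the precision.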
